A study of Mus musculus with 4 samples.

Results

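The genes examined, 10 in number, belong to the costimulatory pathway of osteoclasts: the adaptors Tyrobp and Fcer1g, the receptors that pair with them (Trem2, Siglec15, Sirpb1a, Oscar and Tarm1), the inhibitory receptor Pirb, and the cytosolic enzymes Syk and Plcg2. All 10 were found by name among the 34745 genes of the deposited table. They were chosen by their role in this pathway with the DI-against-vehicle difference of these libraries already known, so that difference is described below for them and no test is read from it. RNA came from BMMs, which are macrophages grown from mouse bone marrow. The mice were wild type male C57BL/6, 8 weeks old. Every culture was kept for 12 h without FBS and then received RANKL at 100 ng/mL for 24 h, together with dimethyl itaconate (DI), a membrane permeable form of itaconate, in the RANKL+DI group (2 libraries) or with vehicle, labelled DMSO, in the RANKL+Veh group (2 libraries). The labels give the dose of DI as 20 mM, which is not the unit that the paper's methods use. No group lacked RANKL, so these libraries do not show what RANKL itself did to these genes. The labels do not say whether the 2 libraries of a group came from separate mice or cultures, so the spread between them may be technical.

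Osteoclast precursors need more than RANKL: receptors on their surface pair with the adaptors DAP12 (encoded by Tyrobp) or FcRγ (encoded by Fcer1g), which carry a motif with a pair of tyrosines, the ITAM. Src family kinases phosphorylate these tyrosines, the kinase SYK docks on them, and SYK activates PLCγ2, which raises calcium and, through calcineurin, moves NFATc1 into the nucleus. Inhibitory receptors such as PIR-B carry a motif with a single tyrosine, the ITIM, which recruits phosphatases that oppose these kinases.

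The motifs tied to these roles are shown as the coding bases of the principal GENCODE M21 transcripts on GRCm38, 5′ to 3′. Capitals mark the codons of the tyrosines and of the other fixed residues of each search pattern. An ITAM was searched as tyrosine, any 2 residues, leucine or isoleucine, 6 to 8 residues, and the same tyrosine group again. It was found in 2 of the 10 genes, Tyrobp and Fcer1g, and in 2.84% of 21743 translated mouse genes. In both adaptors the match runs across the last exon junction, from exon 4 into exon 5, with 7 residues between the tyrosine groups.
Tyrobp, residues 92 to 106 of 114, chr7:30415670-30417382, + strand: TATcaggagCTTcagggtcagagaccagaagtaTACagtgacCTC
Fcer1g, residues 65 to 79 of 86, chr1:171229889-171230072, - strand: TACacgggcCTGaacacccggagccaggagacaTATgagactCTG
An ITIM was searched as isoleucine, leucine, valine or serine, any residue, tyrosine, any 2 residues, and isoleucine, leucine or valine. Such an ITIM-like match is far less selective, since 48.6% of genes held one. Among the 10 genes, Pirb held 4 matches and Plcg2 2, and Tyrobp, Fcer1g, Tarm1 and Siglec15 held 1 each. Of the matches in Pirb, those from residues 107 and 711 are not printed. The match from residue 792 and the match from residue 822, printed below, both lie in exon 15 of 15, which encodes the end of the cytoplasmic tail.
Pirb, residues 792 to 797 of 841, chr7:3712786-3712803, - strand: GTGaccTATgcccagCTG
Pirb, residues 822 to 827 of 841, chr7:3712696-3712713, - strand: AGTgtaTATgctactCTG

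Both groups were sequenced to similar depth, with 16085692 to 19403480 counts per library. CPM (read counts scaled to a common library size) below are relative to library sizes scaled by TMM factors of 0.963 to 1.04, and FPKM are the authors' values per kilobase of gene length. A floor of 3 counts corresponds to 0.160 to 0.180 CPM, and this floor covers counting error only. The 95% intervals of log2 fold changes come from the edgeR fit and include the spread between libraries. Of the 12590 genes that passed edgeR's filter on low counts, 1868 (14.8%) passed a Benjamini-Hochberg adjusted p of 0.05 in the quasi-likelihood test of edgeR. In all, 899 of them were higher with DI (7.14%) and 969 lower (7.70%), and the libraries of the groups did not overlap in 7372 genes (58.6%). Scaled by library size only, which lowers the median of all log2 fold changes to -0.10, the split became 549 higher and 1930 lower. The macrophage label held: all 8 macrophage markers had counts, and their summed level was 22366 to 23232 CPM with vehicle and 28615 to 29420 CPM with DI. Osteoclast markers summed to 740 to 764 CPM with vehicle and 714 to 730 CPM with DI. Most of this sum was Atp6v0d2, at 422 CPM with vehicle and 509 CPM with DI, so it says little about the other markers. Calcr, the calcitonin receptor of mature osteoclasts, was at 0 in every library. B cell, T and NK cell, mast cell and dendritic cell markers summed to under 1 CPM in each library, neutrophil markers to between 9.23 and 11.1 CPM and stromal markers to between 39.2 and 45.8 CPM.

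The levels of the 10 genes ranged widely, from adaptors among the most abundant transcripts to receptors with a few counts. Per kilobase of the coding transcript, with vehicle, Fcer1g stood at 699 and 610 CPM and Tyrobp at 698 and 566 CPM, so the libraries of these neighbours overlapped. Trem2 followed at 434 and 420, then Pirb at 127 and 133, Syk at 85.3 and 85.9, and Plcg2 at 49.2 and 48.8 CPM per kilobase. Tarm1 (3.25 and 3.67) and Sirpb1a (3.40 and 3.44) overlapped with vehicle, and Siglec15 and Oscar were near the floor. The authors' FPKM give another order at the top, because the gene lengths they imply differ from the coding transcript. For Trem2 the implied length is 6119 bases against 1088 in the coding transcript, and for Fcer1g 1605 against 674. On that scale, with vehicle, Tyrobp was at 655 ± 97.2 FPKM (SD, n = 2), Fcer1g at 285 ± 27.5 and Trem2 at 78.7 ± 1.81, and Plcg2 (50.8 ± 0.374) came before Syk (34.9 ± 0.143). By mean FPKM over all 4 libraries, Tyrobp ranked 49 and Fcer1g 101 from the top of 18290 genes with a count. The receptors that can pair with them ranked 421 (Trem2), 5786 (Tarm1), 9078 (Sirpb1a), 11415 (Siglec15) and 14809 (Oscar).

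**Figure D1:**
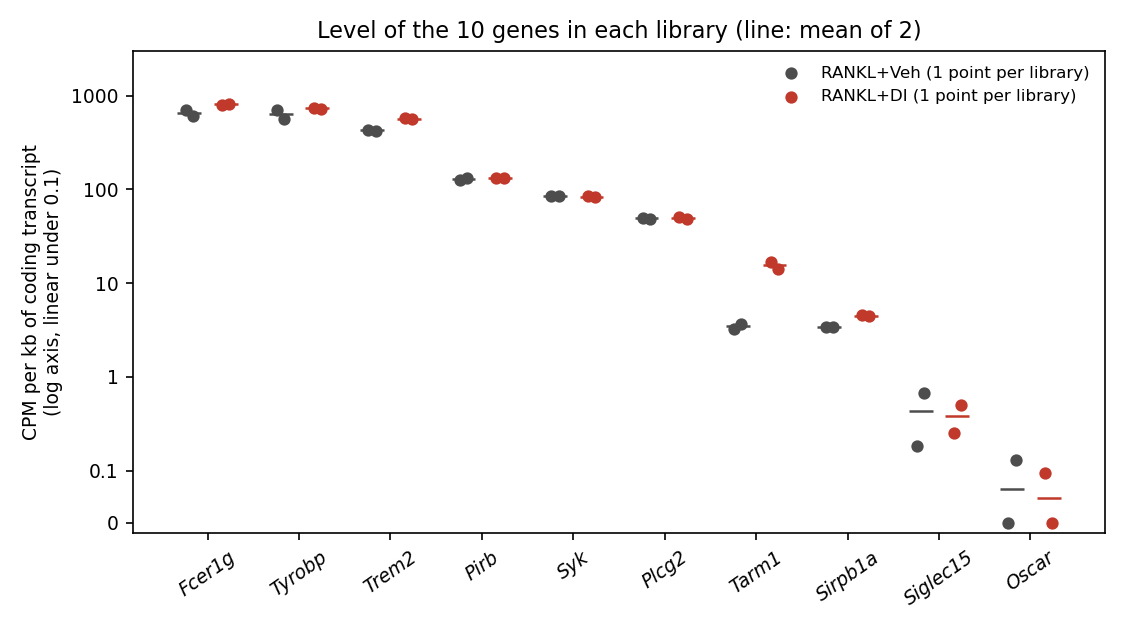
Level of each of the 10 genes in each library, in CPM per kilobase of the coding transcript (vertical log axis, linear under 0.1), ordered by the mean with vehicle. Grey points are the 2 RANKL+Veh libraries, red points the 2 RANKL+DI libraries, and lines their means; the groups stand far apart in Tarm1, where vehicle is at 3.25 and 3.67 and DI at 16.8 and 14.1.

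Both adaptors had higher group means with DI, by small amounts. Tyrobp (ENSMUSG00000030579, chr7:30413788-30417577), which encodes the partner of TREM2, SIGLEC-15 and SIRPβ1, had 7341 and 5321 counts with vehicle and 7140 and 7593 with DI, or 394 and 319 CPM against 416 and 405 CPM. The vehicle libraries differ from each other by more than the first of them differs from either DI library. The log2 fold change was 0.20 (SE 0.095, 95% interval -0.03 to 0.43), and it was 0.36 without RANKL+Veh replicate 1 and 0.06 without RANKL+Veh replicate 2. By FPKM the groups overlapped, with 724 and 587 against 709 and 694. In a bulk sample, fewer cells of a type and less RNA per cell cannot be told apart, which holds for each value here.

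Fcer1g (ENSMUSG00000058715, chr1:171229572-171234365), whose product pairs with OSCAR, TARM1 and activating Fc receptors, had 8779 and 6852 counts with vehicle and 9174 and 10277 with DI. In CPM these were 471 and 411 against 534 and 548, so both DI libraries lay above both vehicle libraries. The log2 fold change was 0.29 (SE 0.067, 95% interval 0.13 to 0.46), between 0.20 and 0.40 when one library at a time was left out.

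Among the receptors that pair with DAP12, Trem2 was the most abundant, and its groups were apart. Trem2 (ENSMUSG00000023992, chr17:48346401-48354147) encodes a receptor for lipids and lipoproteins on macrophages, microglia and osteoclast precursors. It had 8799 and 7620 counts with vehicle and 10687 and 11421 with DI, or 472 and 457 against 622 and 609 CPM. Both DI libraries lay above both vehicle libraries, and the gap was wider than the distance between replicates. The log2 fold change was 0.41 (SE 0.037, 95% interval 0.32 to 0.50), a fold of 1.32, and the 4 pairs of a DI with a vehicle library gave 0.37 to 0.44. With library size as the only scaling it was 0.30.

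Sirpb1a (ENSMUSG00000095788, chr3:15371653-15426520), an activating relative of the CD47 receptor SIRPα, had 95 and 86 counts with vehicle and 119 and 124 with DI. In CPM the values were 5.10 and 5.16 against 6.93 and 6.61, and the groups did not overlap. The log2 fold change was 0.40 (SE 0.14, 95% interval 0.06 to 0.74). These counts are uncertain, because Sirpb1b and Sirpb1c cover 100% of its transcript at 97.3% and 97.4% identity and the counting could split reads among the 3 genes. Sirpb1c had a log2 fold change of 0.56 (edgeR adjusted p = 0.021) and Sirpb1b of 0.25 (adjusted p = 0.46).

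Siglec15 (ENSMUSG00000091055, chromosome 18, 78043614 to 78057395), the sialic acid receptor that marks differentiating osteoclasts, was barely detected. It had 4 and 13 counts with vehicle and 5 and 11 with DI. Each group spans the other, and the log2 fold change of -0.13 had a 95% interval from -1.89 to 1.64, so that differences within this range were not detectable at this depth. The value moved widely and changed sign as libraries were left out: it was 0.27 without RANKL+DI replicate 1, -0.72 without RANKL+DI replicate 2, -0.80 without RANKL+Veh replicate 1 and 1.03 without RANKL+Veh replicate 2. With limma-voom it was 0.05.

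Of the receptors that pair with FcRγ, Oscar was close to absent from the counts and Tarm1 had the largest fold of the 9 tested genes. Oscar (ENSMUSG00000054594, chr7:3609813-3616157), a collagen receptor of osteoclasts, had 0 and 4 counts with vehicle and 3 and 0 with DI. It did not pass the filter, and no fold is given since both groups are at or near the floor. Tarm1 (ENSMUSG00000053338, chr7:3486500-3502624), an activating receptor of myeloid cells that interacts with T cells, had 93 and 94 counts with vehicle and 443 and 405 with DI. In CPM the values were 4.99 and 5.64 against 25.8 and 21.6 with no overlap. The log2 fold change was 2.16 (SE 0.14, 95% interval 1.81 to 2.50), a fold of 4.46. Leaving out one library at a time gave 2.02 to 2.28, and log2(FPKM + 1), a scale on which folds of low genes come out smaller, gave 1.65. With DI, Tarm1 stood at 16.8 and 14.1 CPM per kilobase of coding transcript, above Sirpb1a at 4.62 and 4.41 and far below Trem2 at 572 and 560 or its adaptor Fcer1g at 792 and 813.

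Pirb, the inhibitory counterpart, and the shared enzymes Syk and Plcg2 were abundant and differed little. Pirb (ENSMUSG00000058818, chr7:3711409-3720391), which binds MHC class I, had 9026 and 8494 counts with vehicle and 8650 and 9516 with DI, or 484 and 510 against 504 and 507 CPM. Its log2 fold change was 0.02 (SE 0.040), with a 95% interval of -0.07 to 0.12. About 50.6% of its transcript is matched by Gm14548 at 97.3% identity and 50.4% by Pira2 at 97.2%, so reads could be shared within this family. The pseudogene Gm15931 matches 48.5% at 96.7% and had a mean of 2281 counts, against 418 for Gm14548 and 1059 for Pira2. Syk (ENSMUSG00000021457, chr13:52583173-52648792) had 458 and 461 CPM with vehicle and 453 and 441 CPM with DI. Its log2 fold change was -0.04 (SE 0.036, 95% interval -0.13 to 0.05). Plcg2 (ENSMUSG00000034330, chr8:117498291-117635140), encoding the phospholipase downstream of SYK, had 212 and 210 CPM with vehicle and 217 and 205 CPM with DI. Its log2 fold change was 0.00 (SE 0.045, 95% interval -0.11 to 0.11). The intervals of these 3 genes leave room for differences of up to 0.13 on the log2 scale on this scaling. With library size as the only scaling the values were -0.08 for Pirb, -0.14 for Syk and -0.10 for Plcg2, so that the sign of Pirb and Plcg2 depends on the scaling. It also turned with a library left out, Pirb to -0.01 without RANKL+Veh replicate 1, and Plcg2 to -0.04 without RANKL+DI replicate 1 and -0.004 without RANKL+Veh replicate 2.

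**Figure D2:**
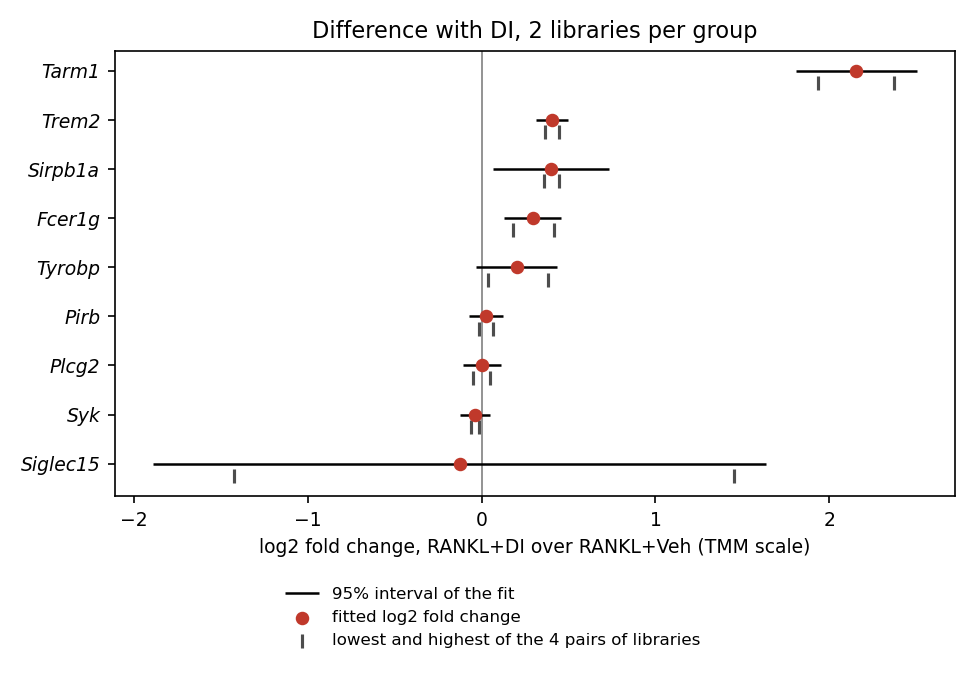
Log2 fold change of RANKL+DI over RANKL+Veh for the 9 of the 10 genes that passed the filter, on the TMM scale (horizontal axis). Red points are the fitted values, black lines their 95% intervals, and grey ticks the lowest and highest of the 4 pairs of libraries; Tarm1 stands at 2.16, the values of Pirb, Plcg2 and Syk lie within 0.04 of 0, and Siglec15 has the widest interval.

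Over the 10 genes, 9 passed the filter and 1, Oscar, did not. Among the 9, 3 had an adjusted p under 0.05, all higher with DI (Tarm1, Trem2 and Fcer1g), and in 6 the groups did not overlap, beside 14.8% and 58.6% of all tested genes. Without RANKL+DI replicate 2 or RANKL+Veh replicate 2, and on both FPKM scales, 2 genes were left, Tarm1 and Trem2, and without RANKL+Veh replicate 1 there were 4, with Tyrobp added. These counts come from the contrast by which the genes were chosen and describe them only. The median log2 fold change was 0.20, against 0.00 for all tested genes, with 7 values above and 2 below 0. With library size as the only scaling the median was 0.10, and 2 genes (Tarm1 and Trem2) were higher and 1, Syk, lower at an adjusted p under 0.05. Cell type markers moved beside these values: 6 of the 8 macrophage markers rose and 1, Fcgr1, fell, while Lyz2 alone made up most of their summed level at a mean of 20605 CPM. Of the 9 osteoclast markers, 2 rose (Atp6v0d2 and Itgb3) and 5 fell (Acp5, Ctsk, Nfatc1, Ocstamp and Mmp9). The platelet list, of which Pf4 was the only gene to pass the filter, went from 32.9 to 33.3 CPM with vehicle to 57.9 to 58.0 CPM with DI. The part of these markers in the values of Tarm1, Trem2 and Fcer1g was not tested.

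Tarm1, Oscar and Pirb lie in the leukocyte receptor region of chromosome 7, within 234 kb on GRCm38 (chr7:3486500-3720391), with 13 other genes between or inside them. Of these, 11 were tested and 0 had an adjusted p under 0.05 by edgeR, DESeq2 or limma-voom, with 4 at an unadjusted p under 0.05 by edgeR. Their log2 fold changes ranged from -0.45 for Tmc4 to 1.16 for RP24-483J20.2, with a median of 0.09. RP24-483J20.2 lies inside the span of Tarm1 (chr7:3489611-3491079) without sharing an exon with it, and had 9 and 5 counts with vehicle and 17 and 15 with DI (edgeR adjusted p = 0.14). No source says that reads were counted by strand, and reads from unspliced Tarm1 RNA could not be told apart from it.

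**Figure D3:**
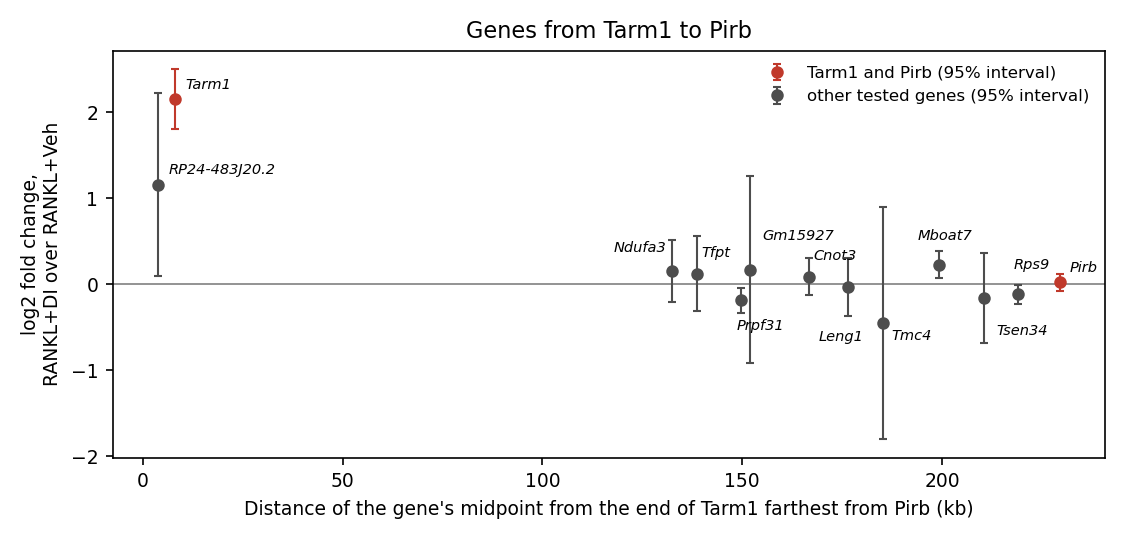
Log2 fold change of RANKL+DI over RANKL+Veh (vertical axis, 95% intervals) for the tested genes from Tarm1 to Pirb, by the distance of each gene's midpoint in kb. Tarm1 (red, left) is at 2.16 and Pirb (red, right) at 0.02; the grey genes are those between or inside them, and RP24-483J20.2, inside Tarm1, is the highest of these at 1.16.

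The promoter of Tarm1 is shown because Tarm1 had the largest difference of the 10 genes. It is the RefSeq sequence of GRCm38.p6 for the 250 bases before the start site, chr7:3502625-3502874, on the - strand, written in the direction of the gene. Capitals mark the matches, on either strand, of the NRF2 antioxidant response core TGACNNNGC, the NFAT core GGAAA and the PU.1 core GAGGAA. In these bases the first NFAT match and the PU.1 match overlap each other. The search also took in the 50 bases after the start site, not printed here, where Tarm1 held a further NFAT match at +7 and a further PU.1 match at +27.
Tarm1: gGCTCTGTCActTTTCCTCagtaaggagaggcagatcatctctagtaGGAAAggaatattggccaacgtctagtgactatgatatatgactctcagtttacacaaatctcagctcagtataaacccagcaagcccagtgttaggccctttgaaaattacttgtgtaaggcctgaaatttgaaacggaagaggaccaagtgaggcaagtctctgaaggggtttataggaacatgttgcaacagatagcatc
The motifs were picked after the values were seen, and a match is a description of letters, not a site. The antioxidant response core was in 12.4% of 32851 mouse promoters over the same 300 bases (250 before and 50 after the start site), and among the 10 genes it was in Tarm1, Oscar and Pirb, which differed widely in their values. The NFAT core was in 61.3% of promoters and the PU.1 core in 28.3%. Of the 10 genes, 8 had an entry in the promoter table (9 promoters, since Syk has a pair). Trem2 held 1 match of the AP-1 motif TGANTCA, which was in 7.81% of promoters.

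Among activating receptors outside the 10 genes, more rose than fell, and as many did not pass the test as did. Of 29 listed, 23 were matched in the table by name or identifier and 22 were tested. The 6 not matched were genes of the Pira family, which may have rows under other names. In all, 9 rose and 2 fell at an adjusted p under 0.05 (edgeR, Benjamini-Hochberg over all tested genes), while 11 did not pass. The share that passed was 50%, beside 14.8% of all tested genes (7.14% higher and 7.70% lower). The median log2 fold change was 0.30, against 0.00 for all tested genes. Treml4, a DAP12 partner, rose by 1.71 on the log2 scale from 22 and 43 counts to 104 and 115 counts (SE 0.32, adjusted p = 0.020). Clec4n, which encodes the FcRγ partner dectin-2, rose by 1.48 from 831 and 647 to 2060 and 2117 counts (SE 0.082, adjusted p = 0.00057). Fcgr3, an FcRγ partner that binds immunoglobulin G, rose by 0.79 (adjusted p = 0.00058), and Clec7a, which encodes dectin-1 with a single-tyrosine ITAM of its own, by 0.63 (adjusted p = 0.0010). The most abundant by FPKM were Clec4d (dectin-3), which rose by 0.52 (adjusted p = 0.0022), and the CD300 family gene listed as AF251705, which rose by 0.32 (adjusted p = 0.0072). The 2 that fell, named after their values were seen, were Clec4e (-0.51, adjusted p = 0.028), encoding the FcRγ partner mincle, and Fcgr1 (-0.60, adjusted p = 0.031). Scaled by library size only, 8 rose and 3 fell. Without RANKL+DI replicate 2 the list held 7 calls, and the calls of Clec4e, Fcgr1, Sirpb1c and Cd300ld were lost with at least 2 of the libraries left out in turn.

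Inhibitory receptors and phosphatases went both ways. Of 22 tested, 5 rose and 2 fell (31.8% passed, beside 14.8% of all tested genes), with a median log2 fold change of 0.06. Cd200r1, a receptor that dampens myeloid cells, rose by 0.55 (SE 0.055, adjusted p = 0.0030) from 2325 and 2042 to 2968 and 3534 counts. Cd300a, an ITIM receptor for membrane lipids, rose by 0.44 (adjusted p = 0.0055), and Lilrb4a, the most abundant of the list at 691 FPKM with vehicle, by 0.26 (adjusted p = 0.0055). Clec12a, an ITIM receptor that senses uric acid crystals, fell by 0.45 on the log2 scale (SE 0.037, adjusted p = 0.0018) from 8666 and 7552 to 5833 and 6269 counts. Pilra, also an ITIM receptor, fell by 0.46 (adjusted p = 0.024), but none of the 4 fits with a library left out kept this call (adjusted p 0.053 to 0.092). Sirpa, the CD47 receptor, was at 0.07 (adjusted p = 0.17), and at -0.03 with library size as the only scaling. The phosphatases Ptpn6 (-0.06, adjusted p = 0.52) and Inpp5d (0.03, adjusted p = 0.76), which dock on ITIMs, had 95% intervals of -0.19 to 0.07 and -0.10 to 0.15 on the log2 scale.

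The list of proximal signalling genes held kinases, scaffolds and other signalling genes, not only those between the adaptors and PLCγ2. Of 33 tested, 2 rose and 6 fell (24.2% passed, beside 14.8% of all tested genes), with a median of 0.06. Prkcb, a protein kinase C, rose by 0.79 (SE 0.091, adjusted p = 0.0043) from 1360 and 1237 to 2392 and 2177 counts. Src, a kinase that osteoclasts need to form their ruffled border, fell by 0.55 (SE 0.077, adjusted p = 0.0081) from 1263 and 1017 to 779 and 805 counts. The scaffolds Lcp2 (SLP-76), which fell by 0.29 (adjusted p = 0.023), and Blnk, which fell by 0.24 (adjusted p = 0.017), link SYK to phospholipase C. The most abundant genes of the list by FPKM were Pik3ap1, an adaptor for phosphoinositide 3-kinase, at 0.08 (adjusted p = 0.22), and Csk, which restrains Src family kinases, at -0.15 (adjusted p = 0.077). With library size as the only scaling, Pik3ap1 was at -0.02 and 1 gene rose and 9 fell. Only Prkcb and Src of the 8 calls remained in all 4 fits with a library left out, and the list then held 6 calls without RANKL+DI replicate 1, 2 without RANKL+DI replicate 2, and 4 without either RANKL+Veh replicate.

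Of 23 tested calcium and NFAT genes, 1 rose and 5 fell (26.1% passed, beside 14.8% of all tested genes), with a median of -0.06. Nfatc1, which is also on the list of osteoclast markers, was among those that fell. Nfatc1, the transcription factor that drives osteoclast formation, fell by 0.43 (SE 0.052, adjusted p = 0.0050) from 2010 and 1749 to 1381 and 1454 counts. Nfatc2 fell by 0.36 (adjusted p = 0.014), the store-operated calcium channel gene Orai2 by 0.31 (adjusted p = 0.031), and Nfat5, the tonicity-responsive family member, by 0.28 (adjusted p = 0.017). Ppp3ca, a catalytic subunit of calcineurin, rose by 0.26 (adjusted p = 0.014), and Ppp3cb, another, fell by 0.27 (adjusted p = 0.038), both named after their values were seen. Calm2, which encodes calmodulin, was the most abundant of the list by FPKM, at 0.01 (adjusted p = 0.92). Scaled by library size only, 7 genes fell and 0 rose at an adjusted p under 0.05, with Ppp3ca at 0.15 (adjusted p = 0.054) and Calm2 at -0.09. Only Nfatc1 kept its call in all 4 fits with a library left out, and 2 calls were left without RANKL+DI replicate 1, 3 without RANKL+Veh replicate 1 and 2 without RANKL+Veh replicate 2.

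The list of ligands and partners, written from general knowledge, included some of the most abundant transcripts. Of 15 tested genes, 6 rose and 1 fell (46.7% passed, beside 14.8% of all tested genes). The median over the list, -0.07, lay below 0. Angptl2, a secreted ligand of PIR-B, rose by 0.59 (SE 0.041, adjusted p = 0.0010) from 3826 and 3283 to 5255 and 5634 counts. Psap, the precursor of the saposins, rose by 0.49 (adjusted p = 0.00056), and Lgals3, which encodes galectin-3, by 0.36 (adjusted p = 0.0053). Of the MHC class I genes whose products bind PIR-B, H2-D1 rose by 0.35 (adjusted p = 0.0028) while B2m, the shared light chain, fell by 0.30 (adjusted p = 0.0062) and H2-K1 was at -0.10 (adjusted p = 0.12). B2m went from 2713 FPKM to 2056 FPKM, and H2-D1 from 764 FPKM to 910 FPKM. Scaled by library size only, 5 rose and 4 fell. Among listed genes linked to TREM2, Apoe, a lipoprotein that TREM2 binds, was at 0.33 (SE 0.095, adjusted p = 0.073). Plxna1, a plexin linked to TREM2 and DAP12, rose by 0.33 (adjusted p = 0.0032). Sema6d, also on this list, was at -1.37 (SE 0.38, adjusted p = 0.068), with 20 and 16 counts with vehicle and 7 and 7 with DI.

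**Figure D4:**
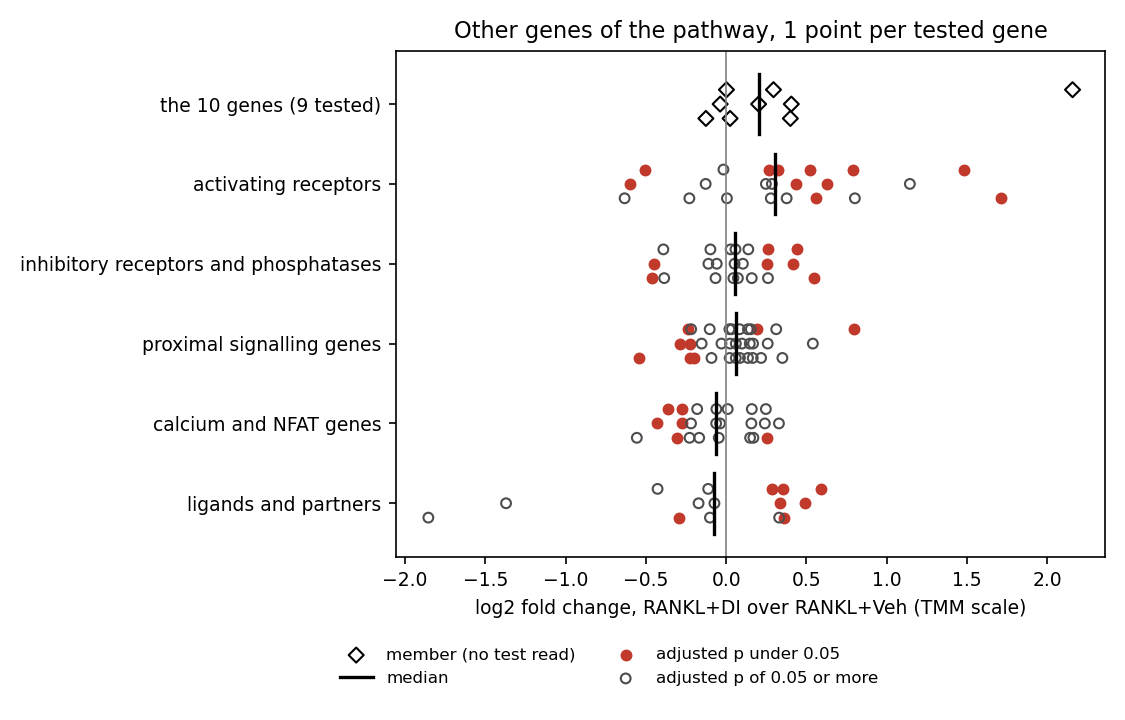
Log2 fold change of RANKL+DI over RANKL+Veh (horizontal axis, TMM scale) for each tested gene of the 5 lists, with the 9 tested of the 10 genes as open diamonds on top. Filled red points have an adjusted p under 0.05 by edgeR, open points do not, and black bars are medians; the activating receptors have the highest median, 0.30, and 5 of the 6 red points of the calcium and NFAT genes lie left of 0.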

How the data were processed

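RNA of 4 libraries of BMMs was analysed, 2 of RANKL+DI and 2 of RANKL+Veh, grouped by their labels. The authors deposited unnormalized read counts for each gene, and FPKM values computed from those counts with library totals and a gene length. The submitters' processing notes name GRCm38 and mm10. The aligner and the counting program are not given in the sources used here. A second deposited table, with pathway annotation added, was not used. The paper's methods give the DI dose in μM and the labels in mM.

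Counts were tested in R 4.3.3 with edgeR 4.0.16 (TMM, filterByExpr, quasi-likelihood fit on the group, Benjamini-Hochberg over 12590 genes). Residual degrees of freedom were 2 before moderation. The common biological coefficient of variation was 0.0905. Replicates differed by more than sampling noise (chi-square per degree of freedom 7.57 and 7.74) and were used as 2 libraries. In simulated data for this comparison (12427 genes in each of 5 draws), 84.2% of genes changed 2-fold and 53.0% of genes changed 1.5-fold were recovered, and 4.31% of calls were false. Each draw changed 200 genes, up or down at random, and took the dispersion of each gene from the fitted trend. These rates hold for that setting and need not hold for the real libraries.

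The 10 genes and the 5 lists of pathway genes, written from general knowledge, were chosen with earlier results of these data known. From each list the text names up to 4 genes with the largest change among those past the threshold whose average log2 CPM exceeded 1 and whose groups were separate, and the 2 highest by FPKM. Of the genes this rule picks, 1 is not reported here. The other genes named were chosen after their values were seen. In the list of activating receptors, 6 genes of the Pira family were not analysed here, and Cd300c2 was matched by its identifier. Near-identical copies were sought with BLAST+ 2.17.0 (95% identity or more, covering 20% or more of a transcript). Coding motifs were read from GENCODE M21 transcripts and promoters from RefSeq's GRCm38.p6 table. No exon of the 10 genes overlapped another gene. Alternatives were DESeq2 1.42.0 (size factors and Wald test), library size only, no filter, limma-voom (limma 3.58.1), a replicate block, log2(FPKM + 0.1) and log2(FPKM + 1) with limma, and each library left out in turn.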

Additional observations from a re-analysis of the deposited data

How the results depend on the processing

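The count of genes with an adjusted p under 0.05, 1868 in the fit reported, was 1598 to 1893 with DESeq2's size factors, the DESeq2 Wald test and limma-voom, 2479 with library size only, 2185 with no filter and 2199 and 2210 with log2(FPKM + 0.1) and log2(FPKM + 1). With a library left out the lone library of a group is assumed to vary like the pair of the other group. The count was then 1087 to 1394, that of activating receptors 7 to 10, of proximal signalling genes 2 to 6, of calcium and NFAT genes 2 to 6, and the median log2 fold change of the 10 genes 0.20 to 0.36. These fits have fewer samples. The libraries share only a replicate number: deviations of same-numbered libraries had a correlation of -0.03 over 12590 genes. With the replicate number as a block there were 1389 calls, 5 of them in proximal signalling genes instead of 8, and 2 of the 10 genes (Tarm1 and Trem2, not Fcer1g) instead of 3. Pirb, Plcg2 and Siglec15 also crossed 0 under alternatives, as given with their values above. Among the pathway genes picked by the rule given above, the values of Sirpa, Pik3ap1 and Calm2 crossed 0, none with an adjusted p under 0.05 on either side. Sirpa was at -0.030 and Pik3ap1 at -0.020 with library size only and with both FPKM scales. Calm2 was at -0.094, -0.095 and -0.094 with these. With a library left out Calm2 was at -0.043 to 0.064, below 0 without RANKL+DI replicate 2 or RANKL+Veh replicate 2. Pathway genes named outside the rule are not in this tally. Inpp5d, for example, was at 0.03 in the fit reported but had a lower mean FPKM with DI (23.7) than with vehicle (25.0). Over the other genes picked by the rule and all alternatives, a value passed the threshold only under the alternative 6 times and only in the fit reported 22 times. Calls lost by pathway genes named outside the rule (Clec4e, Fcgr1, Sirpb1c, Cd300ld, Ppp3ca and Ppp3cb) are not in these counts. All 39 calls in the 5 lists kept their sign under every alternative. Depth limits Oscar and Siglec15, which had at most 13 counts in a library.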
